A study of Mus musculus with 6 samples.

Results

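The miR-29 family of the mouse was followed by small RNA sequencing of C-kit+ cardiac progenitor cells, cells of the heart marked by the surface receptor c-kit, a tyrosine kinase. Its members were taken by name, as the mature arms of the hairpins Mir29a, Mir29b-1, Mir29b-2 and Mir29c, and all 7 were present among the 1978 known mature miRNAs of the count table. The cells came from hearts of wild-type male C57BL/6 mice, labelled 4-6 weeks old, and were sorted with magnetic beads coupled to an antibody to c-kit. One group of 3 libraries was labelled with 12 hours of hypoxia, and the other, with 3 control libraries, was labelled with 0 hours. The labels name hypoxia as the treatment of both groups, so the groups rest on the sample titles and times. Columns of the count table begin with the digit 1 or 0, read as hypoxia and control, and end with the letter A, B or C. Every direction given here rests on that reading. Whether control cells were also cultured for that time, and at which oxygen level hypoxia was set, remains not given in the sources used here, so time in culture and hypoxia cannot be told apart. The labels' extraction protocol speaks of RNA of exosomes, whereas the series' design speaks of cellular RNA, and this was not settled. The titles call the libraries biological replicates without naming animals or cultures, so a p-value reflects library-to-library spread, part of which may be technical.

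A miRNA gene is transcribed as a hairpin whose stem is cut into a 5p and a 3p arm, and usually the guide arm is loaded into Argonaute while the passenger arm is degraded. The guide pairs with messenger RNAs mainly through its seed and lowers their stability and translation. In mouse heart the miR-29 guides are known as repressors of collagens, elastin and fibrillin in fibroblasts, and as miRNAs that decline next to an infarct. They are made from 2 genomic clusters, and miR-29b-3p is the one guide that both clusters produce.

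The sequences show what the counts can and cannot separate. Mature sequences from RefSeq (GRCm38.p6) were matched by name for 7 of 7 arms and are written 5′ to 3′ with the seed, bases 2 to 8, in capitals (mmu- marks a mouse miRNA and is mostly left out below).
mmu-miR-29a-3p: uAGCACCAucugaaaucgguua
mmu-miR-29b-3p: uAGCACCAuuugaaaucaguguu
mmu-miR-29c-3p: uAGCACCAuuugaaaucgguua
mmu-miR-29a-5p: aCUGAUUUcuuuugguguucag
mmu-miR-29b-1-5p: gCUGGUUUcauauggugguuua
mmu-miR-29b-2-5p: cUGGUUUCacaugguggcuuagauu
mmu-miR-29c-5p: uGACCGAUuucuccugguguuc
The 3 guides share the seed AGCACCA, and no other of the 1679 mature miRNAs in the RefSeq table has it. Counted from the 5′ end, miR-29a-3p differs from miR-29c-3p by the single substitution C10U. Over their shared length miR-29b-3p differs from miR-29c-3p at 3 positions (A18G, G21U and U22A). It ends in the hexamer AGUGUU, described in human cells as a signal for import of miR-29b into the nucleus. The assignment of reads lying 1 base from another miRNA remains not given in the sources used here, so the separate counts of miR-29a-3p and miR-29c-3p depend on an unstated step. The 5p arms have 4 different seeds and mark their own hairpins, which makes miR-29b-1-5p and miR-29b-2-5p the arms that separate the genomic sources of miR-29b.

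The first cluster lies on the minus strand of chromosome 6 (GRCm38), with Mir29b-1 at 31063023 to 31063093 and Mir29a downstream of it at 31062660 to 31062747, 275 bases apart. Mir29b-1 overlaps the edge of the long noncoding RNA Gm27019 in GENCODE M21, while no gene other than the miRNA itself overlaps Mir29a. On the plus strand of chromosome 1 the second cluster holds Mir29b-2 at 195037040 to 195037120 and Mir29c at 195037547 to 195037634, 426 bases apart. Both lie in an exon of the noncoding transcript A330023F24Rik, and an exon of Cd46, a complement regulator, runs over them on the opposite strand.

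The match to this seed, TGGTGCT in a messenger RNA, occurred in the longest annotated 3′ UTR of 9 of 11 mouse genes chosen here as textbook miR-29 targets, and in 13.1% of 20997 3′ UTRs of all protein-coding genes (GENCODE M21, sense strand, median length 962 bases). Because these genes were chosen as targets, their share is a description only. Sites are shown for the fibrillar collagen genes Col1a1 (chromosome 11) and Col3a1 (chromosome 1), for the elastin gene Eln (chromosome 5) and for the fibrillin gene Fbn1 (chromosome 2), on the transcript strand with the seed match in capitals.
Col1a1: tgggaaggaatttcTGGTGCTatagaag
Col3a1: tcaaaatgtctcaaTGGTGCTataataa
Eln: gacctcatcaacgtTGGTGCTactgctt
Fbn1: ttctgttgtctgttTGGTGCTagtaaat
The Eln 3′ UTR held 3 such matches and that of Dnmt3a, a DNA methyltransferase gene, held 5. Col1a2 and Sparc had 0 in the 3′ UTR searched, which says only that these letters are not in it. Messenger RNA was not measured in this series.

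Known miRNA totals ran from 13170756 to 16975987 counts in hypoxia libraries and from 12285970 to 15166638 in control libraries. After the filter on low counts 619 known miRNAs were tested, and all 7 miR-29 arms were among them. CPM values are counts relative to library size after TMM scaling. Summed endothelial markers (both arms of miR-126a) took 21.4% to 24.7% of known miRNA counts in hypoxia libraries and 22.4% to 23.5% in control libraries. Of the 6 fibroblast and smooth muscle markers none was at 0, and their summed share was 2.79% to 5.39% in hypoxia and 2.68% to 5.78% in control. The highest in each group was its library A (5.39% in hypoxia, 5.78% in control), and the other 4 libraries lay at 3.17% or below. The 5 cardiomyocyte markers took 0.0107% to 0.0166% in hypoxia and 0.00791% to 0.0153% in control, and miR-208a-3p and miR-208b-3p, which mark cardiomyocytes most closely, did not pass the filter on low counts. The 6 blood cell markers took 0.00131% to 0.00294% in hypoxia and 0.00151% to 0.00284% in control. In such bulk libraries fewer cells of a type and less RNA per cell cannot be told apart.

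Of the family, only miR-29a-3p and miR-29b-3p were among the abundant miRNAs of these libraries. Together the 7 arms took 1.29%, 1.53% and 1.73% of known miRNA counts in hypoxia libraries A, B and C, against 1.36%, 0.930% and 0.996% in control libraries A, B and C. The widest exact Clopper-Pearson 95% interval of these shares, that of hypoxia C, ran from 1.73% to 1.74%, and such intervals cover counting error only. Hypoxia B and C lay above every control library, but control A lay above hypoxia A, so the groups overlapped. The mean share was 1.52% ± 0.224 in hypoxia and 1.10% ± 0.234 in control (SD, n = 3 each), so hypoxia was higher by 0.421 percentage points. A two-sided exact permutation test gave p = 0.2, where 0.1 is the smallest possible for 3 libraries against 3. Hypoxia A minus control A was -0.0762 percentage points, and the same difference was 0.601 in the libraries lettered B and 0.739 in those lettered C.

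The guide arms made up almost all of this. Over the 6 libraries miR-29a-3p held 59.4% of the guide counts, miR-29b-3p 40.2% and miR-29c-3p 0.470%, and the 4 passenger arms together held 0.342% of all miR-29 counts. By count, miR-29a-3p ranked between 17 and 20 among known miRNAs in hypoxia libraries and between 19 and 22 in control libraries. The order of mean CPM was the same in both groups for the 3 guides, with miR-29a-3p first, then miR-29b-3p, then miR-29c-3p. miR-29a-3p lay above miR-29b-3p in each of the 6 libraries, although the ranges of these neighbours overlapped across libraries. Below the guides, miR-29a-5p and miR-29c-5p did not differ beyond their spread in either group, and miR-29b-1-5p and miR-29b-2-5p came last. Mature arms are 22 to 25 bases long, so no scaling by length was made.

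**Figure D1:**
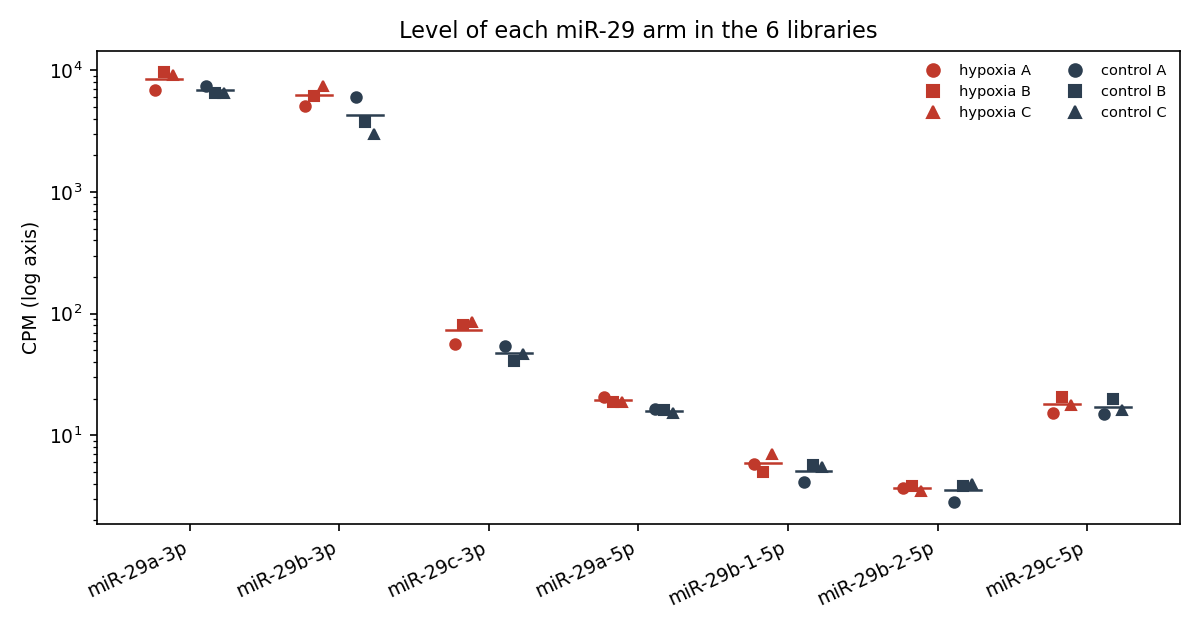
CPM of each miR-29 arm (log axis) in hypoxia libraries (red, left of each pair) and control libraries (dark, right), with a symbol for each letter and a bar at the group mean. The guides miR-29a-3p and miR-29b-3p stand between 2989 and 9621 CPM, miR-29c-3p at 41.1 to 85.3 CPM and the passenger arms at 20.9 CPM or less.

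mmu-miR-29a-3p, the most abundant guide and a product of the chromosome 6 cluster alone, stood at 6875, 9621 and 9071 CPM in hypoxia libraries A, B and C, against 7451, 6542 and 6539 CPM in control libraries A, B and C. Hypoxia B and C were the highest of the 6, and hypoxia A lay between control B and control A. The means were 8522 ± 1453 CPM in hypoxia and 6844 ± 525 CPM in control (SD, n = 3 each). On the log2 scale hypoxia exceeded control by 0.32 (SE 0.16), with an adjusted p of 0.77 in edgeR's quasi-likelihood test over all tested miRNAs. Without hypoxia B the log2 fold change was 0.20.

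mmu-miR-29b-3p, the guide produced by both clusters, stood at 5093, 6193 and 7376 CPM in hypoxia A, B and C and at 6020, 3756 and 2989 CPM in control A, B and C. Control A exceeded hypoxia A, while the other pair of controls lay below every hypoxia library. The means were 6221 ± 1142 CPM in hypoxia and 4255 ± 1576 CPM in control (SD, n = 3 each). The log2 fold change was 0.55 with an SE of 0.27 (edgeR adjusted p = 0.75). This was the highest log2 fold change among the 65 tested miRNAs with a mean of at least 1000 CPM. That of miR-29a-3p was in place 5, a ranking made after the values were seen. Directly above miR-29a-3p, miR-199a-3p and miR-199b-3p had identical values (log2 fold change 0.38, SE 0.32), and each took a place. The value of miR-29b-3p depended on single control libraries: without control A it was 0.86 (edgeR adjusted p = 0.25), and without control C it was 0.34 (edgeR adjusted p = 0.99).

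mmu-miR-29c-3p, the guide of the chromosome 1 cluster, stood at 55.8, 80.4 and 85.3 CPM in hypoxia A, B and C and at 54.2, 41.1 and 46.5 CPM in control A, B and C. It was the one guide whose groups did not overlap, by the narrow gap between hypoxia A and control A. The means were 73.8 ± 15.8 CPM in hypoxia and 47.3 ± 6.60 CPM in control (SD, n = 3 each), a 1.56-fold difference. The log2 fold change of 0.64 (SE 0.23) had an edgeR adjusted p of 0.65 over all 619 miRNAs.

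Among the passenger arms, mmu-miR-29a-5p stood at 20.6, 18.7 and 18.9 CPM in hypoxia A, B and C and at 16.4, 16.1 and 15.3 CPM in control A, B and C. Its groups did not overlap, and the log2 fold change was 0.28 (SE 0.18, edgeR adjusted p = 0.87), from 260 to 342 counts per library in hypoxia and 203 to 240 in control. Library A stood out less here than for the guide of the same hairpin: within the letters miR-29a-5p gave 0.32, 0.22 and 0.30 on the log2 scale for A, B and C, and miR-29a-3p gave -0.12, 0.56 and 0.47. The difference between these arms is tested as a ratio further on.

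The other passenger arms overlapped between the groups. mmu-miR-29c-5p averaged 18.0 ± 2.85 CPM in hypoxia and 17.1 ± 2.59 CPM in control (log2 fold change 0.07, SE 0.21, edgeR adjusted p = 0.99). The mmu-miR-29b-1-5p mean was 5.94 ± 0.974 CPM in hypoxia and 5.12 ± 0.860 CPM in control (log2 fold change 0.21, SE 0.26, edgeR adjusted p = 0.99). For mmu-miR-29b-2-5p it was 3.67 ± 0.190 CPM in hypoxia and 3.56 ± 0.637 CPM in control (log2 fold change 0.04, SE 0.27, edgeR adjusted p = 0.99, SD over n = 3 libraries throughout). These last arms rest on 48 to 97 counts per library in hypoxia and 35 to 87 in control, so small changes were not detectable at this depth. The log2 fold change of miR-29b-1-5p was 0.056 without control A and 0.055 without hypoxia C.

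Counted over the family, 7 of 7 arms had a log2 fold change above 0, where 51.2% of all 619 tested miRNAs did, and their median was 0.28, against 0.01 over all tested. Without control A or without hypoxia B, miR-29b-2-5p and miR-29c-5p turned negative and 5 of 7 were above 0. The groups did not overlap, with hypoxia higher, for 2 of 7 arms (miR-29a-5p and miR-29c-3p) and for 7.43% of all tested miRNAs. At an unadjusted p under 0.05 in that direction there was 1 of 7, miR-29c-3p, against 4.04% of all. edgeR's quasi-likelihood test called 0 arms at an adjusted p under 0.05, and 0% of all tested miRNAs, while 42 of the 619 (6.79%) had an unadjusted p under 0.05, and DESeq2 called 1 miRNA, which was no miR-29 arm.

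**Figure D2:**
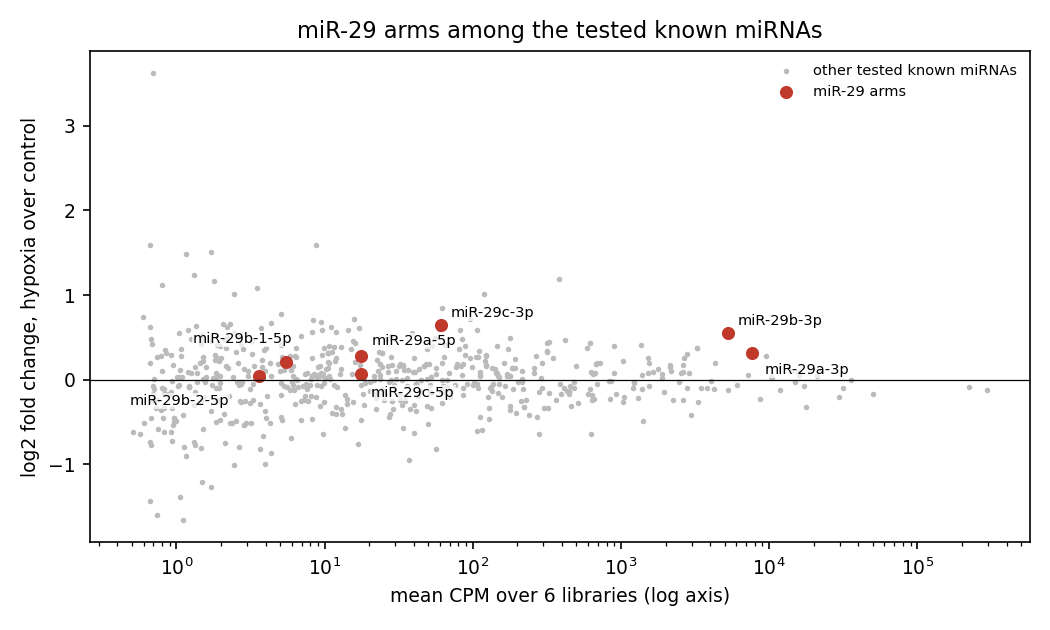
Log2 fold change of hypoxia over control against the mean CPM over the 6 libraries (log axis) for the 619 tested known miRNAs, with the miR-29 arms in red. All 7 arms lie above 0, from 0.04 for miR-29b-2-5p to 0.64 for miR-29c-3p.

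Same-lettered libraries deviated together from their group means over all tested miRNAs (the A libraries correlated at 0.52, the B libraries at 0.43 and the C libraries at 0.28), so the letter was also fitted as a block. With the block edgeR called 14 miRNAs (2.26%), 6 of them higher in hypoxia (0.969% of all tested), and 0 of the 7 miR-29 arms. Leaving out pair A or pair C brought that number to 0, and leaving out pair B brought it to 23. The guides had blocked log2 fold changes of 0.30 for miR-29a-3p (SE 0.13, edgeR adjusted p = 0.23), 0.60 for miR-29b-3p (SE 0.23, edgeR adjusted p = 0.18) and 0.63 for miR-29c-3p (SE 0.18, edgeR adjusted p = 0.086). At an unadjusted p under 0.05 in the upward direction there were 3 of 7 arms, the 3 guides, against 11.6% of all tested miRNAs.

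For each of the 3 guides pair A gave the lowest difference. In pair A the differences were -0.12 for miR-29a-3p, -0.24 for miR-29b-3p and 0.04 for miR-29c-3p, whereas in pairs B and C they ran from 0.47 to 1.30. The fibroblast and smooth muscle marker share was highest in both libraries of pair A, and its part in this result was not tested. Without pair A the blocked log2 fold changes were 0.51, 1.01 and 0.92 for miR-29a-3p, miR-29b-3p and miR-29c-3p, each with an edgeR adjusted p of 0.054. Without pair B they were 0.15, 0.50 and 0.43 in the same order (edgeR adjusted p = 0.66, 0.15 and 0.22). Without pair C they were 0.21, 0.23 and 0.50 (edgeR adjusted p = 0.81, 0.84 and 0.65). The equal values of 0.054 come from the Benjamini-Hochberg adjustment, not from equal unadjusted p-values. Without pair A 135 of 625 tested miRNAs had an unadjusted edgeR p under 0.05, and 0 were called. That number was 101 of 627 without pair B and 60 of 628 without pair C. The cardiomyocyte marker share was higher in hypoxia within each letter, pair A included. It was 0.0144%, 0.0166% and 0.0107% in hypoxia A, B and C, against 0.00848%, 0.0153% and 0.00791% in control A, B and C. Most of it was miR-1a-3p, with 1989 of 2247 marker counts in hypoxia A and 935 of 1042 in control A. In log2 CPM, which is TMM-scaled unlike the share, miR-1a-3p differed by 0.66, -0.06 and 0.44 in pairs A, B and C. On that scale it was not higher in pair B. Of the cardiomyocyte markers 3 of 5 passed the filter, and their 3 log2 fold changes were above 0 with a median of 0.52. edgeR called 0 of the 3 with or without the block, and with it 2 of 3 were higher in hypoxia at an unadjusted p under 0.05, against 11.6% of all tested. The defining miR-208a-3p had 4 to 9 counts in hypoxia libraries and 3 in each control library, and miR-208b-3p had 0 to 3 counts in hypoxia and 0 to 2 in control. The part of these markers in the guides' values was not tested. Of all tested miRNAs 20.0% were higher in hypoxia in each of the 3 pairs, and of the 7 arms 3 were (miR-29a-5p, miR-29c-3p and miR-29c-5p).

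**Figure D3:**
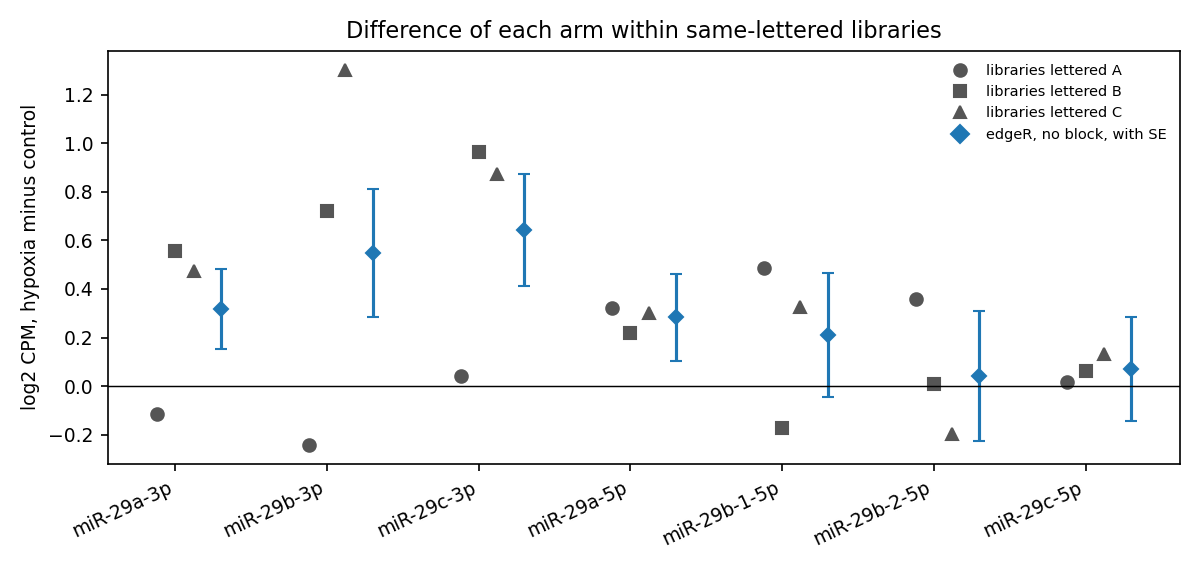
Difference in log2 CPM, hypoxia minus control, of each miR-29 arm within libraries lettered A (circles), B (squares) and C (triangles), beside the edgeR log2 fold change with its SE (blue diamonds). For the 3 guides the circle lies lowest, from -0.24 to 0.04, and the other symbols lie at 0.47 or above.

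Ratios between arms of the same library do not depend on how libraries are scaled, and 9 of them were tested between the groups, each by a two-sided exact permutation test with Benjamini-Hochberg adjustment over the 9. In 2 of the 9 the groups did not overlap, and both hold miR-29c-3p. Each gave an exact permutation p = 0.1, the smallest possible, and 0.45 adjusted, so neither passed.

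The first set the near-identical guides of the clusters against each other. Counts of miR-29c-3p were 0.812%, 0.836% and 0.940% of those of miR-29a-3p in hypoxia A, B and C, against 0.728%, 0.628% and 0.711% in control A, B and C. Every hypoxia library lay above every control library, and also above the control of its letter. The log2 ratio was -6.86 ± 0.11 in hypoxia and -7.18 ± 0.11 in control (SD, n = 3 each), a difference of 0.32. Over the 6 libraries the log2 CPM of these guides had a Pearson correlation of 0.95, given as a description since the libraries also share depth and composition. Whether reads of either guide are part of the counts of the other was not tested.

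The second set the arms of the Mir29c hairpin against each other. Counts of miR-29c-5p were 27.1%, 25.9% and 20.9% of those of miR-29c-3p in hypoxia A, B and C, against 27.6%, 48.6% and 35.1% in control A, B and C. The gap between the groups lay between hypoxia A and control A and was narrow. The log2 ratio was -2.03 ± 0.20 in hypoxia and -1.47 ± 0.41 in control (SD, n = 3 each), a difference of -0.56. Without control B the difference was -0.34.

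For the Mir29a hairpin the passenger arm was far rarer beside its guide. miR-29a-5p had 0.299%, 0.194% and 0.208% of the counts of miR-29a-3p in hypoxia A, B and C and 0.221%, 0.245% and 0.234% in control A, B and C. The log2 ratio was -8.76 ± 0.33 in hypoxia and -8.74 ± 0.08 in control (SD, n = 3 each, exact permutation p = 1). A single Mir29a passenger read thus stood beside 334 to 514 guide reads in hypoxia libraries and 407 to 453 in control libraries. For Mir29c it stood beside 3.69 to 4.78 in hypoxia and 2.06 to 3.62 in control. Both depend on the unstated assignment of reads between miR-29a-3p and miR-29c-3p.

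The passenger arms were also summed by cluster. The chromosome 6 arms (miR-29a-5p and miR-29b-1-5p) summed to 1.40, 0.960 and 1.21 times the chromosome 1 arms (miR-29b-2-5p and miR-29c-5p) in hypoxia A, B and C, and to 1.15, 0.913 and 1.03 times in control A, B and C. The means of both groups lay near equality, with a log2 ratio of 0.23 ± 0.28 in hypoxia and 0.04 ± 0.17 in control (SD, n = 3 each, exact permutation p = 0.4). Hypoxia was higher within each letter, by 0.28, 0.07 and 0.24 for A, B and C. An exact sign-flip permutation test of these 3 differences gave 0.25, below which it cannot go. The mean difference of 0.20 was 0.072 without hypoxia A, 0.11 without control B and 0.34 without hypoxia B. For the guides no such sum can be made, because miR-29b-3p comes from both clusters. Of the single-cluster guides, miR-29a-3p exceeded miR-29c-3p 106-fold to 123-fold in hypoxia and 137-fold to 159-fold in control. These guide counts depend on the unstated assignment of reads between them.

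**Figure D4:**
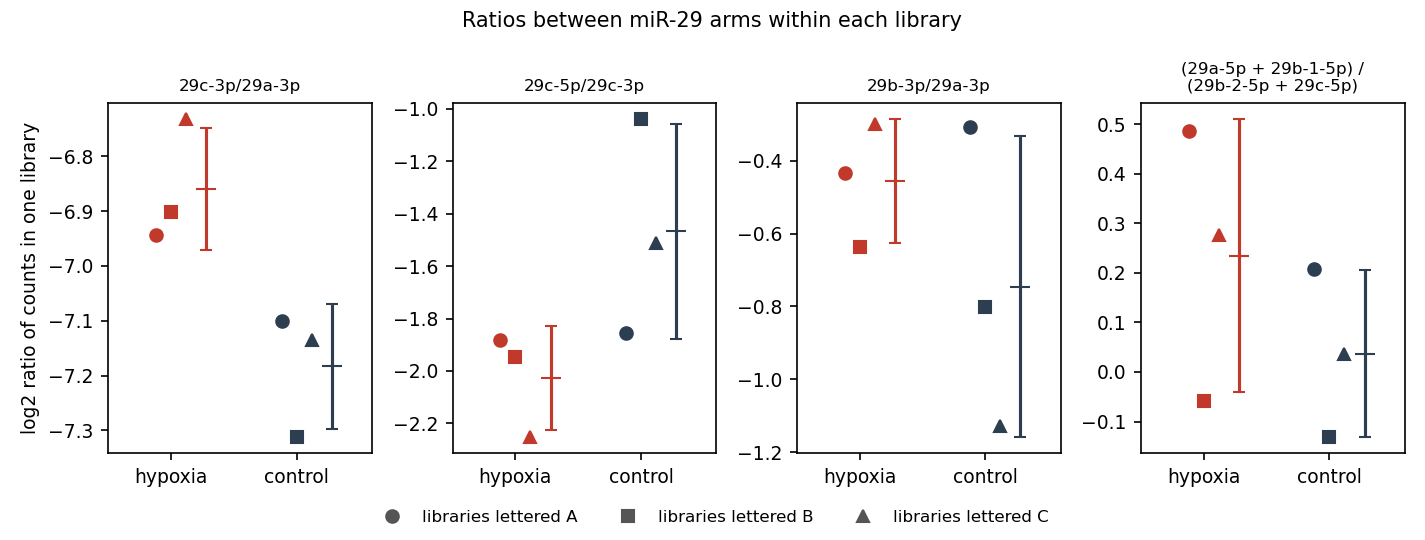
Log2 ratios of counts between miR-29 arms within each library, hypoxia (red) left of control (dark), with symbols for the letters and the mean with its SD beside them. The groups do not overlap for 29c-3p/29a-3p and 29c-5p/29c-3p, and they overlap for 29b-3p/29a-3p and for the chromosome 6 passenger arms over the chromosome 1 passenger arms.

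For miR-29b the hairpin on chromosome 6 gave somewhat more passenger counts than the one on chromosome 1. miR-29b-1-5p had 1.59, 1.30 and 2.00 times the counts of miR-29b-2-5p in hypoxia A, B and C and 1.46, 1.48 and 1.38 times in control A, B and C. The log2 ratio was 0.68 ± 0.31 in hypoxia and 0.52 ± 0.05 in control (SD, n = 3 each, exact permutation p = 0.5). Their difference of 0.16 was 0.0011 without hypoxia C and 0.31 without hypoxia B. Both hairpins were therefore represented in each library, but a passenger ratio does not say which hairpin the miR-29b-3p counts came from.

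The guides miR-29b-3p and miR-29a-3p did not keep a fixed ratio. Since miR-29b-3p also comes from Mir29b-2 on chromosome 1, this ratio does not describe the chromosome 6 cluster alone. Counts of miR-29b-3p were 74.1%, 64.4% and 81.3% of those of miR-29a-3p in hypoxia A, B and C and 80.8%, 57.4% and 45.7% in control A, B and C. The spread was wider among control libraries, and the log2 ratio of -0.46 ± 0.17 in hypoxia and -0.75 ± 0.41 in control (SD, n = 3 each) gave exact permutation p = 0.3. The difference of 0.29 became 0.51 without control A and 0.098 without control C. Against its own guide, the summed miR-29b passenger count was 0.187%, 0.144% and 0.142% in hypoxia A, B and C and 0.116%, 0.254% and 0.320% in control A, B and C (exact permutation p = 0.4). That log2 difference of -0.44 was -0.87 without control A and -0.14 without control C. Within a cluster the passenger arms also overlapped between groups, with log2 ratios of -1.71 ± 0.24 in hypoxia and -1.64 ± 0.29 in control for miR-29b-1-5p over miR-29a-5p (exact permutation p = 1), and 2.27 ± 0.20 in hypoxia and 2.26 ± 0.21 in control for miR-29c-5p over miR-29b-2-5p (exact permutation p = 0.8, SD, n = 3 each).

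Other miRNAs known to repress collagens, the matrix regulator CTGF or further matrix transcripts were set beside the family. Of 18 listed, 18 passed the filter, 13 had a log2 fold change above 0, against 51.2% of all tested miRNAs, and the median was 0.20, against 0.01 over all tested. edgeR called 0 of them without the block, against 0% of all, and 0 with it, against 2.26% of all. The groups did not overlap, with hypoxia higher, for 3 of the 18, against 7.43% of all tested. In each of the 3 pairs 9 of the 18 were higher in hypoxia, against 20.0% of all tested, and 2 were lower. With the block 5 were higher at an unadjusted edgeR p under 0.05, against 11.6% of all tested, and 1 was lower. The most abundant were miR-26a-5p at 16735 ± 682 CPM in hypoxia and 17577 ± 1730 CPM in control (log2 fold change -0.07), miR-30a-5p at 16188 ± 1585 CPM in hypoxia and 15161 ± 1104 CPM in control (log2 fold change 0.09), and miR-24-3p at 11366 ± 1684 CPM in hypoxia and 12362 ± 2065 CPM in control (log2 fold change -0.12, SD, n = 3 each). Thus miR-29a-3p, at 8522 CPM in hypoxia and 6844 CPM in control, was below these in level.

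Of 12 miRNAs linked to more fibrosis in the heart, 10 passed the filter, 5 lay above 0 (51.2% of all tested did) and 5 below, with a median of -0.01. Without the block edgeR called 0, against 0% of all tested. With it 1 was called, against 2.26% of all, and 0.969% of all were called higher in hypoxia. It was miR-503-5p, higher in hypoxia and named after its value was seen. The groups did not overlap, with hypoxia higher, for 1 of the 10, against 7.43% of all tested. In each of the 3 pairs 2 of the 10 were higher in hypoxia, against 20.0% of all tested, and 1 was lower. With the block 3 were higher at an unadjusted edgeR p under 0.05, against 11.6% of all tested, and 0 were lower. The most abundant, miR-21a-5p, stood at 282939 ± 29459 CPM in hypoxia and 307505 ± 46386 CPM in control (log2 fold change -0.12). It was followed by miR-125b-5p at 10467 ± 432 CPM in hypoxia and 10277 ± 532 CPM in control (log2 fold change 0.03), and by miR-199a-5p at 1951 ± 1095 CPM in hypoxia and 1858 ± 764 CPM in control (log2 fold change 0.07, SD, n = 3 each).

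The miRNAs whose log2 CPM over the 6 libraries was most like the summed guides were sought among 357 others with at least 10 CPM. They were miR-130a-3p (Pearson's r = 0.92), miR-181c-5p (0.91), let-7i-3p (0.88), miR-148b-5p (0.88) and miR-15a-5p (0.84). With 6 libraries and so many candidates these are a description of likeness only. Of these 5, miR-15a-5p had the largest log2 fold change, 0.72, and miR-148b-5p the smallest, 0.09. Within the family the guides correlated with each other at 0.82 to 0.95. Their correlations with miR-29a-5p were 0.49 to 0.66 and those with miR-29c-5p 0.05 to 0.45. With the low-count arms they were 0.03 to 0.26 for miR-29b-1-5p and -0.54 to -0.11 for miR-29b-2-5p.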

How the data were processed

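Per the submitters' processing notes, bcl2fastq 2.0, DESeq2 and build mm10 were used, with no role or order given. The aligner, counter and annotation release remain not given in the sources used here. The deposited tables hold raw read counts as whole numbers, for 1978 known and 838 predicted miRNAs. Predicted miRNAs served only as a denominator. The members, lists and ratios were chosen with earlier results of these data known, and the target genes and the ranking of abundant miRNAs after the files were seen.

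Counts were filtered with filterByExpr, scaled by TMM and tested with edgeR 4.0.16 (R 4.3.3) by the quasi-likelihood test, hypoxia over control, adjusted over all 619 tested miRNAs at 0.05. The script was tested on simulated data. SE is the absolute log2 fold change over the square root of F. Differences within letters use log2 CPM with a prior count of 2, and ratios use counts plus 0.5. The pairing comes from column letters, which match no replicate number in the titles; unlike-letter correlations ran from -0.44 to 0.12. DESeq2 1.42.0 and limma 3.58.1 were alternatives. Named miRNAs were the 7 arms, the 3 most abundant of each list and the 5 most like the summed guides. Marker miRNAs (miR-126a, miR-208a-3p, miR-208b-3p) were named besides. The names miR-503-5p and miR-1a-3p were added after their values were seen. No miR-29 arm had counts within 1% of another miRNA in every library. Totals were 12285970 to 16975987 counts, and a count of 0 would allow at most 0.244 CPM (3 counts of the shallowest library).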

Additional observations from a re-analysis of the deposited data

How the results depend on the processing

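Across 19 results and 227 alternative values, 209 kept their direction and their side of the threshold. For the shares and ratios only the direction could change, because their exact tests cannot reach 0.05. Against 0 called miRNAs, the count was 4 without the filter (61 at an unadjusted p under 0.05), 1 with DESeq2 (45 at that p) and 14 with the replicate block. Leaving out a library or a same-lettered pair gave 0 to 23. The cause was not tested. No miR-29 arm passed in any alternative. The 3 guides and miR-29a-5p and miR-29b-1-5p stayed above 0 in all 16 alternatives each, though their size moved with single libraries. Leaving out a library or pair gave ranges across 0 for the log2 fold changes of miR-29b-2-5p (-0.12 to 0.18) and miR-29c-5p (-0.077 to 0.18). It did so too for the log2 ratio differences of 29a-5p/29a-3p (-0.21 to 0.10), 29c-5p/29b-2-5p (-0.11 to 0.13) and 29b-1-5p/29a-5p (-0.24 to 0.026). The replicate block changed no call of a miR-29 arm. With 3 libraries a group, no exact test here could go below 0.1. Depth limits the miR-29b passenger arms, which had 35 to 97 counts per library.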
